A study of Mus musculus with 6 samples.

Results

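The 49 genes described here belong to families whose proteins hold neighbouring cells together or give them an apical and a basal side. They were chosen by symbol, as rows of the count table: cadherins, catenins and plakophilins, nectins, claudins, junctional adhesion molecules, tight junction scaffolds and the Par, Scribble and Crumbs polarity complexes. All 49 are among the 23420 symbols of the table, and 33 of them passed edgeR's filter on low counts, which kept 11608 genes. The cells are eEnd2, a line of mouse embryonic endothelial cells. Both groups carry human Integrin-β1A with GFP inserted in its extracellular part, expressed from a short fragment of the human β-actin promoter next to a matrix attachment region of chicken lysozyme. In β1-WT-GFP cells the chimera is wildtype, and in β1-K794Q-GFP cells a lysine of its cytoplasmic tail is replaced by glutamine to mimic its acetylation. Total RNA was taken at confluence from 3 cultures of each, without treatment, called WT-A, WT-B and WT-C (β1-WT-GFP, or WT cells) and K794Q-A, K794Q-B and K794Q-C (β1-K794Q-GFP, or K794Q cells) here. No untransfected cells are among the samples, and the labels do not tell whether a culture came from the population sorted for low or for high GFP. The p values therefore measure the spread between these cultures, which the labels do not describe as independent transfections.

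At the cell border, adherens junctions and tight junctions lie close together. In an adherens junction cadherins bind the same cadherin of the neighbouring cell and are tied to actin by catenins, while nectins form a parallel set of contacts through afadin. Tight junctions are made of claudins, occludin-like proteins and junctional adhesion molecules on a scaffold of zonula occludens proteins. The Par complex of Par3, Par6 and an atypical protein kinase C assembles at these contacts and, with the Crumbs and Scribble complexes, separates the apical from the basolateral membrane. In endothelium VE-cadherin and claudin-5 are the best known determinants of barrier tightness.

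Totals were between 9589826 and 15287191 counts per culture, so that 3 counts, the limit a count of 0 allows, corresponded to between 0.209 and 0.300 CPM (counts relative to the library total). These are on the same scale as the values below. Such limits reflect the error of counting alone. All values below are CPM on libraries scaled with TMM, called normalized counts. Each of the 15 endothelial markers examined passed the filter on low counts, and 0 of them, which include the members Cdh5 and Esam, differed between the groups by the thresholds used below. Their levels were not even between cultures: K794Q-B had 0.296 normalized counts of Sox17, 31.3 of Flt1 and 55.0 of Mmrn2, against 97.6, 142 and 510.1 in K794Q-A and 205, 457 and 912 in K794Q-C. Sox17 had 17.9 (WT-A), 21.6 (WT-B) and 125 (WT-C). Other markers went the other way. K794Q-B was the highest of the 6 cultures in Pecam1, Cdh5, Tek, Tie1, Emcn, Eng, Esam, Egfl7 and Robo4. The 15 endothelial markers summed to 14720 normalized counts in K794Q-B, and to between 8228 and 10860 in the other cultures. Of 12 epithelial markers none passed the filter, and their summed level was at most 1.53 normalized counts in any culture. The 15 mesenchymal markers summed to between 87.3 and 197 normalized counts in WT cultures and to between 3.78 and 5.30 in K794Q cultures, of which the transcription factor Prrx1 made 183 (WT-A), 193 (WT-B) and 56.6 (WT-C) and at most 0.0987 in any K794Q culture. Without Prrx1 the other 14 summed to 2.80 (WT-A), 3.20 (WT-B) and 30.8 (WT-C) and to between 3.78 and 5.20 in K794Q cultures. WT-C was thus the highest culture for this sum, with 16.4 normalized counts of Pdgfra and 5.92 of Col1a1. Not all of the 14 were highest there. Fap had 0.0696 in WT-C against 2.01 (WT-A) and 1.80 (WT-B). Col1a2 had 0 in WT-C and 3.16 in K794Q-B. Twist1, Lum, Dcn, Postn and Thy1 had no count in any culture. Of 9 leukocyte markers 1, Cd68, passed the filter. The list summed to between 48.3 and 89.0 normalized counts in WT and between 31.9 and 104 in K794Q cultures. Csf1r, which did not pass the filter, had 10.7 in WT-C and at most 0.774 in any other culture. Mouse Itgb1, whose row can also take reads of the human chimera, had 1001 ± 319 and 1668 ± 874 normalized counts in WT and K794Q cells (SD, n = 3 each). The part of these lists in the values below was not tested.

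Most junction and polarity genes had small fitted differences between K794Q and WT cells. A gene was counted as changed at a fold change of at least 2 with an unadjusted p of at most 0.05 from edgeR's quasi-likelihood F-test. Of the 33 tested members 2 met this, Pard3 and Pvrl1, both higher in K794Q cells, and 0 were lower. Among all 11608 tested genes 5.19% met it, 3.48% higher and 1.71% lower, so that 2 of 33 was close to the share among all genes. No member had an adjusted p of at most 0.05 (Benjamini-Hochberg over all tested genes), a level that 0.181% of all genes reached. The smallest adjusted p of a member was 0.0885, for Pvrl1. With DESeq2 in place of edgeR, 2 members had an adjusted p of at most 0.05. The share of all genes at that level with DESeq2 is not given here, so these 2 cannot be set against 0.181%. A fitted fold of at least 2, whatever its p, was found in 6 members (10.2% of all tested genes), and an unadjusted p of at most 0.05 in 3 (10.2%). The log2 fold changes (log2FC, K794Q over WT) of the 33 members had a median of 0.08, against -0.02 over all tested genes, and a median size of 0.22 against 0.26. In 25 of the 33 the log2FC was smaller than 0.5 in size, as in 73.3% of all tested genes.

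**Figure D1:**
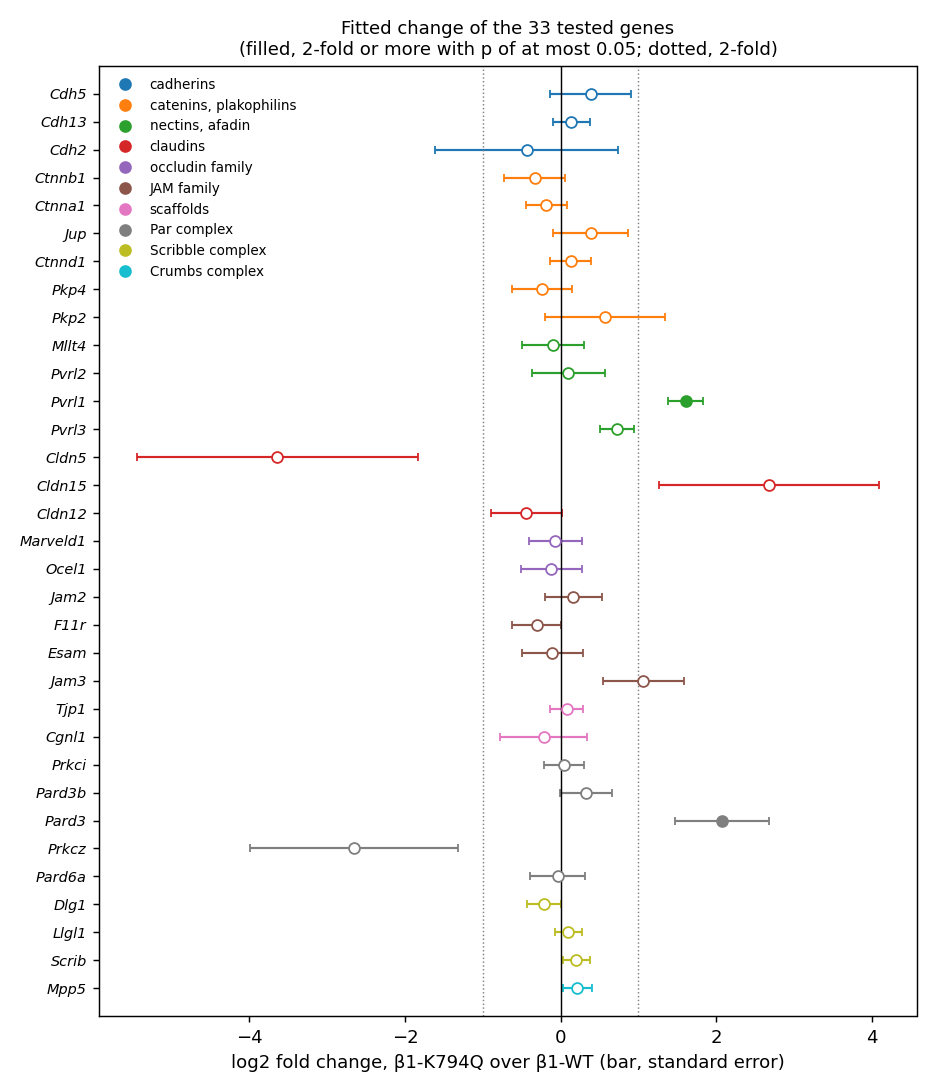
Fitted log2FCs of K794Q over WT cells for the 33 tested genes, ordered by role and, within a role, by level; bars are standard errors (SE), filled points passed both thresholds, and dotted lines mark a 2-fold change. Pard3 (2.07) and Pvrl1 (1.60) are filled, the widest bars belong to Cldn5, Cldn15, Prkcz and Cdh2, and 25 of the 33 points lie within 0.5 of 0.

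Within a group the cultures differed unequally in these genes. Counting members at least 2-fold apart on log2(CPM + 0.5), 1 of 33 separated WT-A and WT-B, while 13 separated WT-A from WT-C and 13 separated WT-B from WT-C. Among all tested genes the shares for these pairs were 0.569%, 23.3% and 21.9%, against 3.03%, 39.4% and 39.4% of the members. WT-A and WT-B were nevertheless not the same library (chi-square per degree of freedom over genes 9.97), and both were kept. In K794Q cells K794Q-A and K794Q-C were separated by 1 member, K794Q-A and K794Q-B by 8, and K794Q-B and K794Q-C by 9. For these pairs the shares among all tested genes were 7.78%, 17.2% and 22.1%, against 3.03%, 24.2% and 27.3% of the members. Between the groups the number ranged from 5 to 12 over the 9 pairs of cultures, above the 1 between WT-A and WT-B and below the 13 of both WT pairs that contain WT-C. Over these 9 pairs the share of members ran from 15.15% to 36.4%. Among all tested genes it ran from 14.1% (WT-A and K794Q-A) to 25.4% (WT-C and K794Q-B). K794Q-B was the highest of the 6 cultures in 10 members (21.9% of all tested genes) and WT-C in 9 (26.0%), while WT-A was the lowest in 10 (12.5%) and WT-C in 7 (25.5%).

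**Figure D2:**
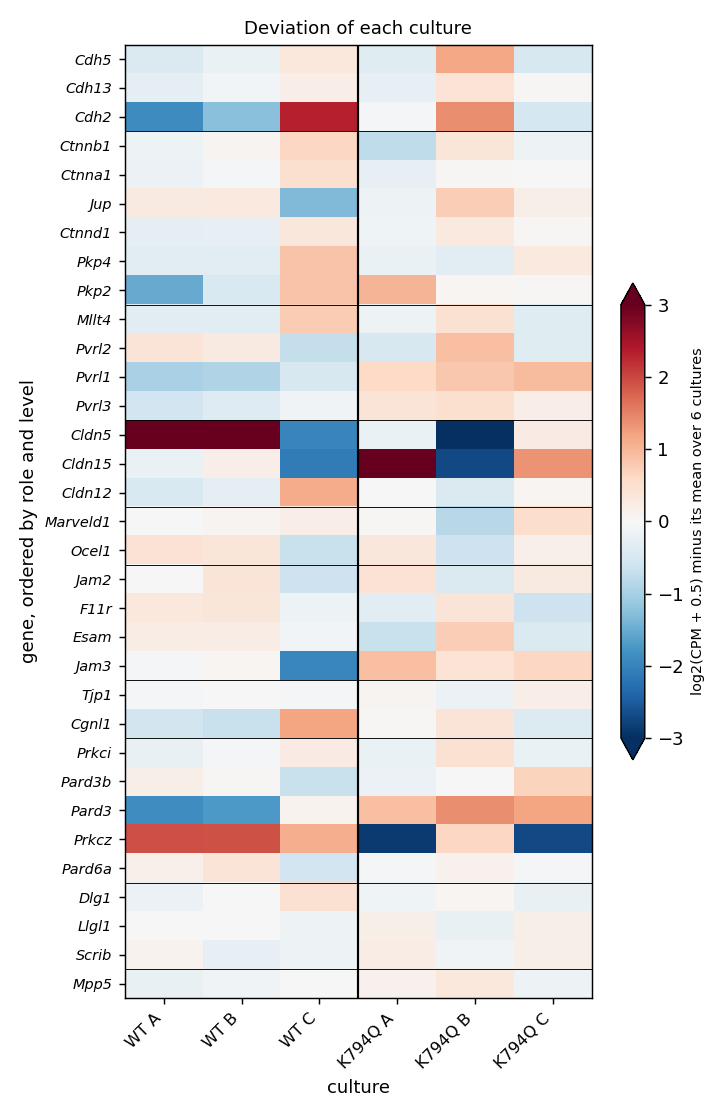
Deviation of log2(CPM + 0.5) from its mean over the 6 cultures, for the 33 tested genes in rows and the cultures in columns; the vertical line separates WT from K794Q cultures, and colours saturate at 3 log2 units. WT-C departs from WT-A and WT-B in Cdh2, Jup, Cldn5, Cldn15, Jam3, Cgnl1 and Pard3, and Pvrl1 and Pvrl3 have all 3 cultures of each group on their own side.

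The cadherins were led by VE-cadherin (Cdh5), the adhesion receptor of endothelial adherens junctions. It had 1338 (WT-A), 1564 (WT-B) and 2227 (WT-C) against 1409 (K794Q-A), 3994 (K794Q-B) and 1294 (K794Q-C) normalized counts. The groups overlapped, and K794Q-B stood above the other 5 cultures. The log2FC was 0.38 (SE 0.52, adjusted p = 0.894). Per kilobase of annotated exon, Cdh5 had the highest level of all 49 genes, 469 CPM per kilobase as a mean over the 6 cultures.

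N-cadherin (Cdh2), which connects endothelial cells to pericytes and is the main cadherin of mesenchymal cells, was the cadherin that varied most. It had 5.51 (WT-A), 8.70 (WT-B) and 111 (WT-C) against 20.6 (K794Q-A), 57.5 (K794Q-B) and 14.7 (K794Q-C) normalized counts. All 3 K794Q cultures lay above WT-A and WT-B and below WT-C. In WT-C the sum of the mesenchymal markers other than Prrx1 was also highest, though Fap and Col1a2 were not. With Prrx1 the sum went the other way, 87.3 normalized counts in WT-C against 186 (WT-A) and 197 (WT-B). A link between Cdh2 and these markers was not tested. The log2FC was -0.44 with a SE of 1.18, and 2.13 without WT-C, where it passed both thresholds. T-cadherin (Cdh13), a cadherin anchored in the membrane by a lipid and lacking a cytoplasmic tail, had 124 ± 22.0 normalized counts in WT and 136 ± 31.3 in K794Q cells (SD, n = 3 each). E-cadherin (Cdh1), P-cadherin (Cdh3) and Cdh11 did not pass the filter; Cdh1 had 1 count in 1 culture and Cdh3 none in any, so neither was detectable above the limit of 3 counts.

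Catenins carry the cadherin tail to actin. None of the 6 tested catenins and plakophilins passed the thresholds, and their log2FCs ran from -0.34 to 0.57. β-catenin (Ctnnb1), which also acts in Wnt signalling, had 1595 (WT-A), 1879 (WT-B) and 2730 (WT-C) against 1046 (K794Q-A), 2279 (K794Q-B) and 1591 (K794Q-C) normalized counts. The ranges overlapped, and the log2FC was -0.34 (SE 0.39, adjusted p = 0.866). Some exonic bases of Ctnnb1 are shared with Ulk4 on the other strand, and whether strand was used in counting is not given in the sources used here. α-catenin (Ctnna1), the actin-binding link, had 783 ± 197 and 690.1 ± 69.8 normalized counts in WT and K794Q cells (SD, n = 3 each). p120-catenin (Ctnnd1), which keeps cadherins at the surface, had a log2FC of 0.13 with a SE of 0.26, and its value is uncertain because Gm28635 shares 4482 exonic bases with it on the same strand. Shorter stretches of Ctnna1, Pvrl2, Mllt4, Pard3b and Llgl1 are also shared with a gene on the other strand.

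Plakoglobin (Jup), the catenin that can take the place of β-catenin and also serves desmosomes, had 749 (WT-A), 760.0 (WT-B) and 249 (WT-C) against 560.1 (K794Q-A), 1030 (K794Q-B) and 704 (K794Q-C) normalized counts. WT-C was the lowest of the 6, and the other 5 cultures overlapped between the groups (log2FC 0.38, SE 0.48). Plakophilins are plaque proteins related to p120-catenin. Pkp4 had a log2FC of -0.24 and Pkp2 one of 0.57, and Pkp2 had at most 6.45 normalized counts in any culture. The neural Ctnna2 had no count in any culture, and δ-catenin (Ctnnd2) had 11 counts in K794Q-B and none elsewhere.

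The nectins held Pvrl1, the member with the smallest p. Nectins are immunoglobulin-like receptors that bind a nectin on the neighbouring cell, nectin-1 and nectin-3 being partners of each other. Nectin-1, listed under its older symbol Pvrl1, is found at chr9:43743984-43807461 (GRCm38). It had 8.84 (WT-A), 9.40 (WT-B) and 12.7 (WT-C) against 27.4 (K794Q-A), 31.6 (K794Q-B) and 35.2 (K794Q-C) normalized counts. The lowest K794Q culture was well above the highest WT culture, and the groups spanned 1.44-fold and 1.28-fold within themselves. Pvrl1 was 3.04-fold higher in K794Q cells (log2FC 1.60, SE 0.23, unadjusted p = 0.000341, adjusted p = 0.0885). Its log2FC ran from 1.50 to 1.80 as single cultures were left out, and the median over its 24 tested neighbours on the chromosome was 0.11.

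Nectin-3 (Pvrl3), the partner of nectin-1, had 12.6 (WT-A), 14.4 (WT-B) and 17.7 (WT-C) against 25.1 (K794Q-A), 26.9 (K794Q-B) and 21.8 (K794Q-C) normalized counts. Again the groups did not overlap. The log2FC was 0.73 (SE 0.21, unadjusted p = 0.0138, adjusted p = 0.296), a 1.65-fold difference that falls short of 2-fold and so was not counted as changed. In 4 of the 33 members all 3 K794Q cultures lay above all 3 WT cultures, namely Pvrl1, Pvrl3, Pard3 and Jam3, and in 1, Prkcz, all lay below. Among all tested genes these shares were 8.45% and 8.12%. For each of the 5 the exact permutation test (two-sided) gave p = 0.1, the smallest that 3 cultures against 3 allow.

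Nectin-2 (Pvrl2), the nectin with the highest level here per kilobase of annotated exon, had 177 (WT-A), 161 (WT-B) and 81.6 (WT-C) against 96.4 (K794Q-A), 249 (K794Q-B) and 103 (K794Q-C) normalized counts, and the ranges overlapped throughout (log2FC 0.10, SE 0.47). Afadin, listed as Mllt4, is the actin-binding partner of all nectins. It had 339 (WT-A), 337 (WT-B) and 721 (WT-C) against 387 (K794Q-A), 585 (K794Q-B) and 332 (K794Q-C) normalized counts. Its log2FC of -0.10 had a SE of 0.40 and ran from -0.37 to 0.37 as single cultures were left out.

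Among the polarity genes the Par complex held both the other member that passed the thresholds and the most negative log2FC outside the claudins. Par3 (Pard3) is the scaffold that recruits Par6 and atypical protein kinase C to junctions. The gene is found at chr8:127063893-127612286 (GRCm38, plus strand). It had 5.25 (WT-A), 5.80 (WT-B) and 22.1 (WT-C) against 38.5 (K794Q-A), 54.6 (K794Q-B) and 47.4 (K794Q-C) normalized counts. WT-C lay between the other WT cultures and the K794Q cultures. Pard3 was 4.21-fold higher in K794Q cells (log2FC 2.07, SE 0.60, unadjusted p = 0.0125, adjusted p = 0.288). The log2FC was 3.09 without WT-C (adjusted p = 0.0255, over all settings between 0.0230 and 0.759) and at least 1.74 without any other culture. The related Pard3b had 28.2 ± 8.22 and 35.4 ± 11.6 normalized counts in WT and K794Q cells (SD, n = 3 each), a log2FC of 0.33 with a SE of 0.33. Per kilobase of annotated exon, the mean level was 0.763 CPM for Pard3 and 2.15 for Pard3b in WT cells, and 3.23 and 2.69 in K794Q cells. The order of the genes was not the same in all cultures of a group: in WT-C Pard3 (1.53 CPM per kilobase) was above Pard3b (1.44), and in K794Q-C it was below it (3.27 and 3.69).

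The complex contains either of a pair of atypical kinases. Protein kinase C-ζ (Prkcz) had 16.2 (WT-A), 15.9 (WT-B) and 8.78 (WT-C) normalized counts. It had 0.0963 in K794Q-A and 0.172 in K794Q-C, from 1 and 2 counts, and 6.22 in K794Q-B, from 63 counts. Each K794Q culture lay below each WT culture, and K794Q-B was much nearer to the WT cells than K794Q-A and K794Q-C were. The log2FC was -2.66 (SE 1.34, unadjusted p = 0.0919, adjusted p = 0.603), short of the thresholds. Without K794Q-B it was -6.53 and passed them (adjusted p = 0.0212, over all settings up to 0.948), a fitted value that rests on 3 counts in the remaining 2 cultures and depends on the prior count. Protein kinase C-ι (Prkci), the other atypical kinase, had 31.5 (WT-A), 35.7 (WT-B) and 44.0 (WT-C) against 32.2 (K794Q-A), 50.8 (K794Q-B) and 32.0 (K794Q-C) normalized counts, a log2FC of 0.05 with a SE of 0.26. Of the Par6 genes, Pard6a had 6.10 ± 2.12 and 5.93 ± 0.509 normalized counts in WT and K794Q cells (SD, n = 3 each), while Pard6b and Pard6g had at most 1 and 15 counts in a culture.

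**Figure D3:**
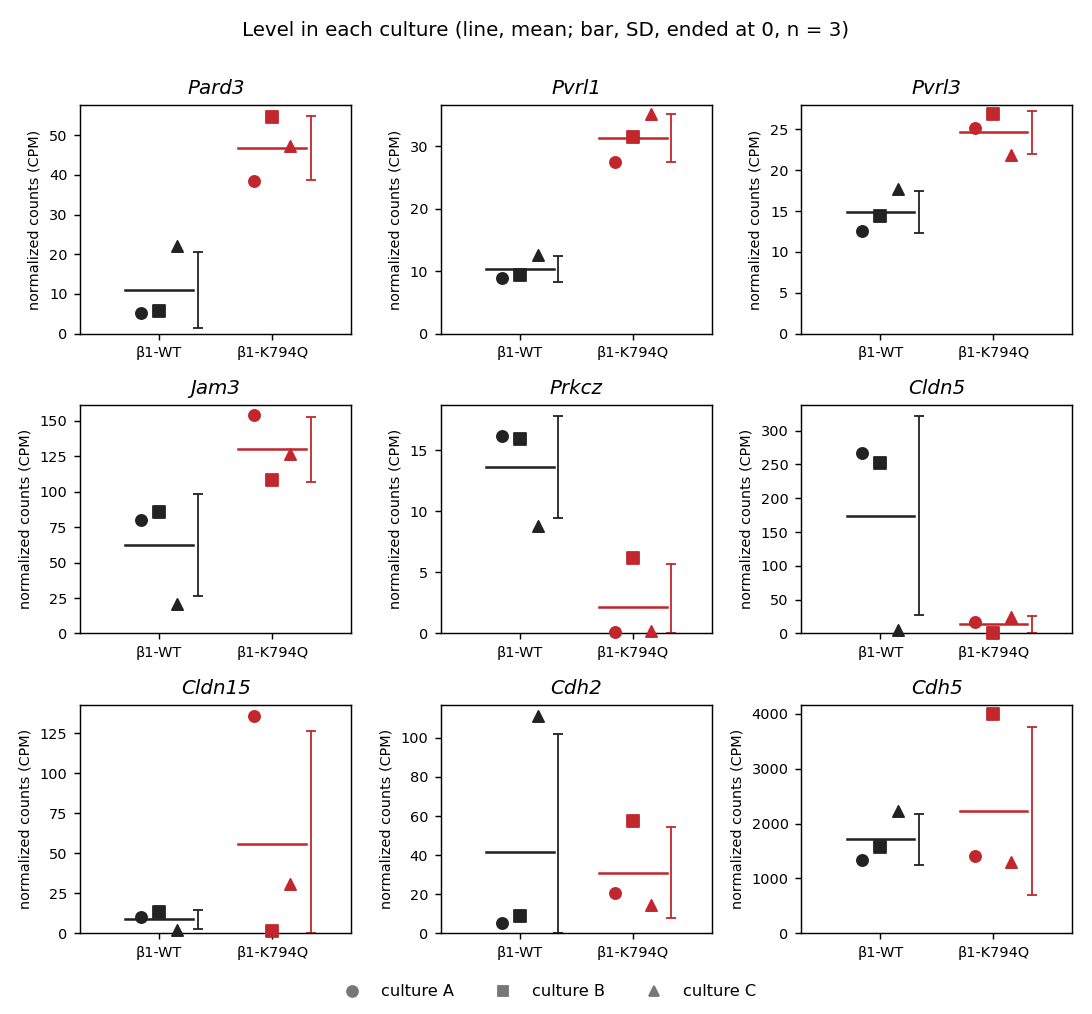
Normalized counts (CPM) of 9 genes in each culture, WT in black and K794Q in red, with the culture letter given by the symbol; lines are means and bars SD (n = 3), ended at 0. The groups do not overlap in Pard3, Pvrl1, Pvrl3, Jam3 and Prkcz. Within its own group, 1 culture stands apart in Cldn5 (WT C), Cldn15 (K794Q A), Cdh2 (WT C) and Cdh5 (K794Q B).

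Scribble, Dlg1 and Llgl1 mark the basolateral side, and none of them passed the thresholds. Dlg1 had 132 (WT-A), 147 (WT-B) and 204 (WT-C) against 135 (K794Q-A), 154 (K794Q-B) and 127 (K794Q-C) normalized counts (log2FC -0.21, SE 0.22). Scrib had a log2FC of 0.20 and Llgl1 one of 0.10, with SE of 0.18 and 0.17. In the Crumbs complex Crb3, the membrane protein, had 1 count in all 6 cultures together. Its partner Pals1, listed as Mpp5, had 57.8 (WT-A), 63.5 (WT-B) and 69.1 (WT-C) against 74.8 (K794Q-A), 85.5 (K794Q-B) and 60.9 (K794Q-C) normalized counts. These ranges overlapped, and the log2FC was 0.22 with a SE of 0.18.

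Claudins seal the space between cells or form ion pores in it. Of the 7 claudins 3 passed the filter, and none passed the thresholds, although Cldn5 and Cldn15 ranged widely between cultures. Claudin-5 (Cldn5), the main sealing claudin of endothelium, had 267 (WT-A), 252 (WT-B) and 4.74 (WT-C) normalized counts. It had 17.5 in K794Q-A, 24.3 in K794Q-C and 0 counts in K794Q-B, which allows up to 0.296 CPM. The high level was found in WT-A and WT-B, and WT-C was below 2 of the 3 K794Q cultures. The log2FC of -3.64 had a SE of 1.81 (adjusted p = 0.594) and was -4.20, past the thresholds, without WT-C. Since these are bulk samples, fewer cells expressing a gene and less RNA of it per cell cannot be told apart.

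Claudin-15 (Cldn15), known for forming a cation pore in the intestine, is found at chr5:136966616-136975858 (GRCm38). It had 10.3 (WT-A), 13.6 (WT-B) and 2.37 (WT-C) against 136 (K794Q-A), 1.38 (K794Q-B) and 30.8 (K794Q-C) normalized counts. K794Q-A and K794Q-C were above every WT culture, and K794Q-B was below all of them. The log2FC of 2.68 had a SE of 1.41 (adjusted p = 0.620), and it was 0.89 without K794Q-A and 3.27, past the thresholds, without K794Q-B. In K794Q-B both claudins were at their lowest of the 6 cultures, and in WT-C both were at their next lowest. Claudin-12 (Cldn12) had 19.6 (WT-A), 22.4 (WT-B) and 58.8 (WT-C) normalized counts, against 24.7 ± 4.44 (SD, n = 3) in K794Q cells. Cldn1, Cldn3, Cldn11 and Cldn14 had between 0 and 5 counts per culture.

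Stretches before the start sites are printed for 5 genes above that had a fold of at least 2 or groups without overlap, to describe their letters. Promoter sequences were found for 34 of the 49 members, Pvrl1 and Jam3 not among them. Each stretch holds the bases before the outermost start in the RefSeq table (GRCm38.p6), ended at any GENCODE exon within it. Those of Pvrl3 and Cldn15 lie inside the GENCODE gene, which has a transcript that starts farther upstream. Capitals mark matches on either strand to the GC box GGGCGG, the CCAAT box, the E-box CAGGTG bound by Snail and Zeb factors, and the TEAD motif GGAATG. In the 250 bases before all 32851 RefSeq starts, 32.7% hold the GC box, 33.8% CCAAT, 17.2% CAGGTG and 12.6% GGAATG. The stretches of Pard3 (87 bases) and Cldn15 (225 bases) are shorter than these windows, so their motif counts and base shares come from unlike lengths. A match is a description of the letters only.
Pard3, chr8:127063806-127063892, plus strand: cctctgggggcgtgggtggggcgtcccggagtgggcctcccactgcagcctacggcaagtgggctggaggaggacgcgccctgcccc
Pvrl3 (Nectin3), chr16:46496968-46497217, minus strand: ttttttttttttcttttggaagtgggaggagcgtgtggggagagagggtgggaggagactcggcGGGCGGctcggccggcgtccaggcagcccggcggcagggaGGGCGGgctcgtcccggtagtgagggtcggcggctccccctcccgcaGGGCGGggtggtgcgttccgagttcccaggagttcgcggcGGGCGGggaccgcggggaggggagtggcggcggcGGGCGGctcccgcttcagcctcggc
Prkcz, chr4:155361429-155361678, minus strand: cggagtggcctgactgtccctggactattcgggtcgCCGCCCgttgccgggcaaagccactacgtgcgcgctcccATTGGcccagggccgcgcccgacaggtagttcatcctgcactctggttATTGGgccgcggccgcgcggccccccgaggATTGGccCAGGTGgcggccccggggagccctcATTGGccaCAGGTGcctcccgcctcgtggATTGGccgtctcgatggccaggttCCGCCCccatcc
Cldn5, chr16:18776597-18776846, plus strand: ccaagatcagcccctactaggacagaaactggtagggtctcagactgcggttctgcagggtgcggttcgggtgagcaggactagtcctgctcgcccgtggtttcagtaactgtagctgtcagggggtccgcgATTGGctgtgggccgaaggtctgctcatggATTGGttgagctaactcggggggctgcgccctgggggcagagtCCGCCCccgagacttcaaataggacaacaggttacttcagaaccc
Cldn15, chr5:136967619-136967843, plus strand: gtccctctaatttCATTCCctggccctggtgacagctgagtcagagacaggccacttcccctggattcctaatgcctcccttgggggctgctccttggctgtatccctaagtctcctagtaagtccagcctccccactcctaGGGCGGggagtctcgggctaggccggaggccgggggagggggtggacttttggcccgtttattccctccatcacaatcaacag
The stretches of Pard3, Pvrl3 and Prkcz had 75.9%, 73.2% and 70.8% G and C, against 59.6% in both claudins and a median of 52.4% over all starts. Pvrl3 holds 5 GC boxes. Prkcz holds 5 CCAAT boxes, 2 GC boxes and 2 CAGGTG matches, and it is the only stretch of the 5 with CAGGTG. Cldn5 holds 2 CCAAT boxes and 1 GC box, and Cldn15 holds 1 GC box and 1 GGAATG match.

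Of the junctional adhesion molecules, which are immunoglobulin-like proteins of tight junctions that also guide leukocytes, JAM-C (Jam3) was the one whose groups did not overlap. It had 80.04 (WT-A), 86.1 (WT-B) and 20.7 (WT-C) against 155 (K794Q-A), 108 (K794Q-B) and 127 (K794Q-C) normalized counts. The log2FC was 1.06 (SE 0.52, unadjusted p = 0.0833, adjusted p = 0.584), and it was 0.66 without WT-C, the lowest of all cultures. Its exons overlap Gm48796 on the other strand. JAM-B (Jam2), the partner of JAM-C, had 782 (WT-A), 1035 (WT-B) and 513 (WT-C) against 1072 (K794Q-A), 583 (K794Q-B) and 950.0 (K794Q-C) normalized counts (log2FC 0.16, SE 0.37). JAM-A (F11r) had 318 ± 57.9 and 257 ± 96.2 normalized counts in WT and K794Q cells (SD, n = 3 each), a log2FC of -0.31 with a SE of 0.32. It lies on distal chromosome 1, and its 24 tested neighbours had a median log2FC of -0.61. Esam, an endothelial relative of the JAMs, had a log2FC of -0.11 with a SE of 0.39.

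None of the remaining tight junction genes passed the thresholds. Zonula occludens-1 (Tjp1), the scaffold that binds claudins and JAMs to actin, had 708 (WT-A), 743 (WT-B) and 724 (WT-C) against 780.0 (K794Q-A), 656 (K794Q-B) and 857 (K794Q-C) normalized counts. It had the narrowest spread of all tested members among WT cultures, 1.05-fold, and a log2FC of 0.08 with a SE of 0.21. Paracingulin (Cgnl1), a relative of cingulin, had 320.0 (WT-A), 296 (WT-B) and 1070 (WT-C) against 480.2 (K794Q-A), 615 (K794Q-B) and 353 (K794Q-C) normalized counts, with WT-C above the other 5 (log2FC -0.22, SE 0.56). Zonula occludens-3 (Tjp3) and cingulin (Cgn), typical of epithelia, had at most 3 and 5 counts in a culture. Marveld1, a relative of occludin, had 48.6 (WT-A), 51.7 (WT-B) and 56.7 (WT-C) against 50.4 (K794Q-A), 27.4 (K794Q-B) and 71.7 (K794Q-C) normalized counts (log2FC -0.07, SE 0.34). Ocel1, which shares a domain with occludin, had a log2FC of -0.12 with a SE of 0.39, and part of its exons overlap Nr2f6 on the other strand. Occludin itself (Ocln) had 9 counts in WT-C and at most 1 in any other, and tricellulin (Marveld2) had at most 5.

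**Figure D4:**
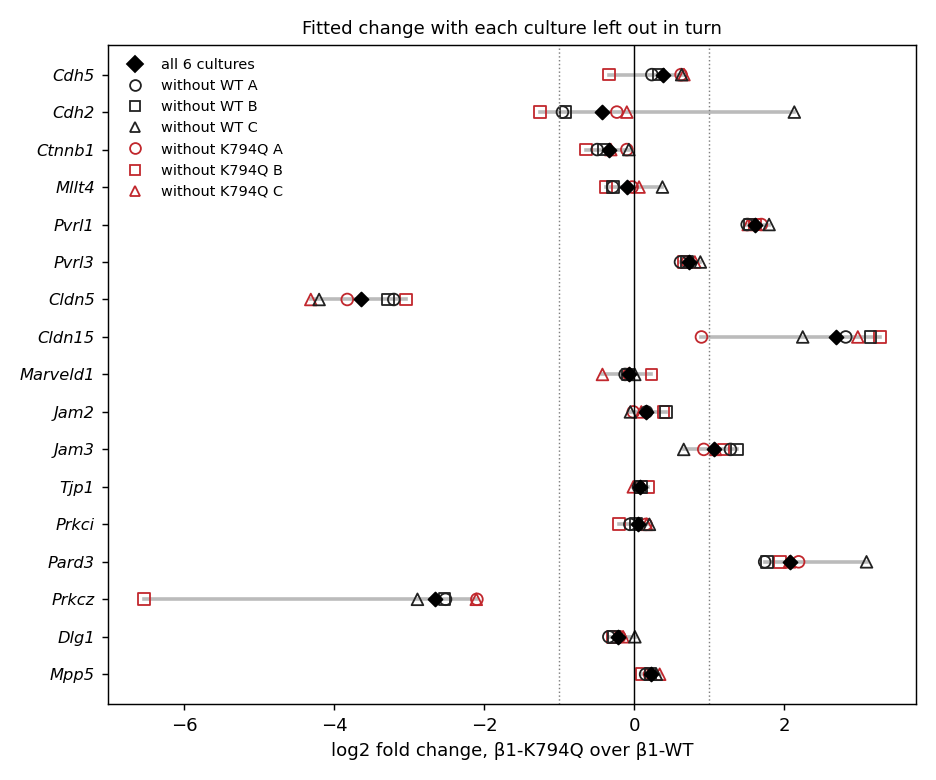
Log2 fold change of K794Q over WT cells for the 17 genes given with values in every culture by rule, in the fit of all 6 cultures (diamonds) and with each culture left out (open symbols, black for WT and red for K794Q cultures); dotted lines mark a 2-fold change. Pvrl1 stays between 1.50 and 1.80 and Pard3 between 1.74 and 3.09, while Cdh2 moves from -1.26 to 2.13 and Prkcz from -6.53 to -2.10.

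Outside the 49, 167 further symbols of junction and polarity lists were in the table and 82 were tested. Of these 4 passed both thresholds, 3 higher and 1 lower, or 4.88% against 5.19% of all genes. None reached an adjusted p of 0.05, where the 4 had unadjusted p values of at most 0.05. Llgl2, the second mammalian Lgl polarity gene, had 3.59 (WT-A), 3.70 (WT-B) and 3.69 (WT-C) against 11.8 (K794Q-A), 9.28 (K794Q-B) and 12.4 (K794Q-C) normalized counts, without overlap (log2FC 1.60, SE 0.26, adjusted p = 0.0956). Celsr1, an atypical cadherin of planar polarity, was the gene that fell, from 226 (WT-A), 231 (WT-B) and 112 (WT-C) to 15.1 (K794Q-A), 47.5 (K794Q-B) and 39.5 (K794Q-C) normalized counts. Its log2FC was -2.48 (SE 0.50, adjusted p = 0.147). The transcription factors Klf4 and Ets1, both known to act on endothelial junction genes, were higher, with log2FCs of 1.36 and 1.34 and adjusted p values of 0.161 and 0.139. Klf4 had 81.8 ± 17.3 and 209 ± 67.0 normalized counts and Ets1 had 211 ± 8.76 and 534 ± 164 in WT and K794Q cells (SD, n = 3 each). Of 21 tested polarity genes 1 was higher and 1 lower, and of 15 transcription factors 2 were higher. None of the 5 tested other cadherins and catenins, 14 tight junction genes, 3 connexins or 24 junction regulators passed, and none of 12 desmosome genes had counts enough to be tested.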

How the data were processed

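Total RNA of 3 cultures per construct was depleted of ribosomal RNA and sequenced. The authors used STAR for alignment to the mouse genome, and the deposited values are raw read counts for each gene symbol, 1 column per culture and 0 other per-sample columns. The submitters' processing notes name mm10, STAR 2.7.4a, HTSeq 0.9.1 and edgeR 3.38.4. The annotation and strand setting are not given in the sources used here. The samples were sequenced in more than 1 run, and which run these counts come from was not tested here.

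Counts were compared in R 4.3.3 with edgeR 4.0.16: filterByExpr, TMM, and the quasi-likelihood F-test (two-sided) over all 6 cultures, fitted on 11608 genes, with Benjamini-Hochberg adjustment over all of them. The thresholds (2-fold, unadjusted p of 0.05) are those of the study. The standard error is the log2 fold change over the square root of F. Positions and exonic lengths (the union of annotated exons) came from GENCODE M21 (GRCm38), with 21739 symbols matched directly and 1277 by synonym. Levels between genes were compared per kilobase of this length, with an exception. The most abundant member of each role was picked, and figure rows ordered, by mean CPM not divided by length. Values in every culture are given for members past the thresholds, members with groups that do not overlap or a fold of at least 2, the most abundant member of each role, and members spanning at least 4-fold within a group at a mean of at least 5 CPM, 17 in all; Jup, Pvrl2, Cgnl1 and Cldn12 were added after their values were seen. The members and lists were chosen with earlier results of these data known. The fits were tested on simulated data with less spread between cultures (dispersion 0.05 for every gene) than was fitted here (common dispersion 0.186). That test therefore does not show how the fits behave at the spread of these cultures. Alternatives were other filters, RLE scaling, DESeq2 1.42.0, the likelihood ratio test, the culture letter as a block, the level of 25 neighbouring genes taken out, and leaving out each culture.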

Additional observations from a re-analysis of the deposited data

How the results depend on the processing

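Pard3 and Pvrl1 passed both thresholds under every setting run. The count of members past them was 2 (603 of all tested genes) and rose to 4 with DESeq2 (695 of all), which added Prkcz and Cldn15. It was 3 with the likelihood ratio test (727 of all), which added Cldn15. With the culture letter as a block it was also 3 (571 of all), with Prkcz added. With 1 culture left out it lay between 2 and 4. The fits without K794Q-B (adding Prkcz and Cldn15) and without WT-C (adding Cdh2 and Cldn5) gave 4. Members with an adjusted p of at most 0.05 were 2 with DESeq2 and 2 with the likelihood ratio test, and between 0 and 1 with a culture left out (Pard3 without WT-C, Prkcz without K794Q-B). The shares of all genes at that level under these settings are not given here. All tested genes past both thresholds numbered 916 with no filter on low counts against 603, and between 501 and 992 with a culture left out, where the fits without WT-C (992) and without K794Q-B (942) gave the most. Other junction genes past them were between 4 and 8, with 8 without WT-C and 7 without K794Q-B. The causes were not tested.

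The culture letters are not known to pair the cultures: deviations from the group means correlated by 0.109, 0.055 and 0.102 across genes for letters A, B and C, and only letter C correlated best with its own letter in both directions. With the culture letter as a replicate block 571 genes passed, Prkcz passed as well at -4.22, and Cdh2 turned to 0.89. With the level of neighbouring genes taken out, Tjp1 turned to -0.029 and Prkci to -0.22. Jam3 went from 1.06 to 0.76 under this setting, less than 2-fold. Pvrl1 was 1.51 (adjusted p = 0.202, quasi-likelihood F-test) and Pard3 2.08. With each culture left out in turn, log2 fold changes that changed sign ran from -1.26 to 2.13 in Cdh2, -0.34 to 0.66 in Cdh5, -0.014 to 0.18 in Tjp1, -0.43 to 0.23 in Marveld1, -0.052 to 0.42 in Jam2, -0.21 to 0.20 in Prkci, -0.37 to 0.37 in Mllt4 and -0.34 to 0.0067 in Dlg1. Of 136 values of the 17 genes under the other settings, 129 kept direction and call. The newer quasi-likelihood method of edgeR 4, chosen after seeing the data, gave 633 genes and the same 2 members; the planned setting that follows the authors' version is the one used throughout.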
